A study of Zea mays with 57 samples.

Results

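Gene expression in shoots of maize seedlings 60 min after nitrogen supply was compared with that at the start of the experiment. The comparison uses 6 of the 57 libraries of the series, chosen by their labelled medium and time: 3 from nitrogen medium at 60 min and 3 from the start (0 min). All seedlings were 10 days old, of the inbred line B73, and had been starved of nitrogen for 2 days with the endosperm removed. The nitrogen group was moved 2 h after lights on into medium with KNO3 and NH4NO3 at 20 mM each, in which 10% of the nitrogen was 15N, and the start group was harvested at 0 min. A further group, in KCl at 20 mM for the same 60 min, and the nitrogen and KCl groups at 5 and 45 min (3 libraries each) serve as further points of comparison. Every library is a pool of shoots from 3 seedlings, and the replicate error therefore measures variation among such pools. The nitrogen 60 min and start libraries differ in nitrogen supply, in added salt, in the transfer itself and in time of day, and these cannot be told apart from these 6 libraries. The KCl medium also differs from the nitrogen medium in chloride and in total salt.

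Plants take up nitrate and ammonium from the medium, reduce nitrate by way of nitrite to ammonium, and build the ammonium into glutamine and glutamate. Nitrate is also a signal: in Arabidopsis, a nitrate transporter that acts as a sensor and transcription factors of the NIN-like family switch on genes for nitrate transport, reduction and regulation soon after nitrate arrives, and other transcription factors follow in waves. The shoot receives this supply through the xylem, after the root.

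The assay read the 3' ends of poly(A) RNA and counted molecules by unique molecular identifiers. Nitrogen 60 min libraries held 2622415, 2930029 and 2779326 counts, and start libraries held 2618258, 3353328 and 2831294, so that 1 count corresponded to 0.297 to 0.409 counts per 1000000 (CPM, scaled by TMM). KCl 60 min libraries were shallower, at 1116220 to 1972416 counts. The 2 groups overlapped as whole profiles. The root mean square log2 difference over 15261 genes was 0.398 to 0.483 between nitrogen 60 min libraries, 0.315 to 0.419 between start libraries and 0.391 to 0.647 across the groups. Nitrogen 60 min replicate 2 lay closer to start replicates 1 and 2 (0.40 and 0.391) than to its own group (0.414 and 0.483), and start replicate 3 lay farthest from the nitrogen libraries (0.502 to 0.647). Start replicate 3 also differed from its own group towards the KCl libraries in the genes lowered in nitrogen, as described with them. Its label was taken as given and could not be checked here. Counts of calls and named genes that rest on it are given with and without it. The lowered genes as a group were chosen with it, and those called without each library are given beside them. Counts on plastid genes made up 0.189%, 0.136% and 0.258% of the nitrogen 60 min libraries and 0.176%, 0.194% and 0.419% of the start libraries. No nuclear gene ID could be matched to a gene name, so nuclear genes are given by ID and without a function, and 18 of the 20 lists of named genes prepared for this tissue, the markers of leaf cell types among them, had no matched member and were not analysed here. Whether fewer cells of a type or less RNA per cell lies behind a change cannot be told apart in these bulk samples.

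By 60 min in nitrogen, 445 genes were higher and 423 lower than at the start (edgeR quasi-likelihood test, Benjamini-Hochberg adjusted p under 0.05). Those 868 genes are 4.71% of the 18412 tested, with 2.42% higher and 2.3% lower. Most changes were below 2-fold: 125 of the higher and 145 of the lower genes exceeded it, and the median log2 change was 0.73 among the higher and -0.85 among the lower genes. The higher genes summed to 121700, 97860 and 132600 CPM in nitrogen at 60 min and 76830, 72790 and 65800 CPM at the start. The lower genes summed to 15770, 20120 and 15900 CPM against 25670, 27090 and 32890 CPM. These sums are of CPM scaled by TMM and are not shares of the counts. Both sets were chosen by this difference, so its direction was given in advance. In 793 of the 868 genes the 3 nitrogen libraries lay on 1 side of the 3 start libraries, which was so for 22.8% of all genes tested.

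**Figure D1:**
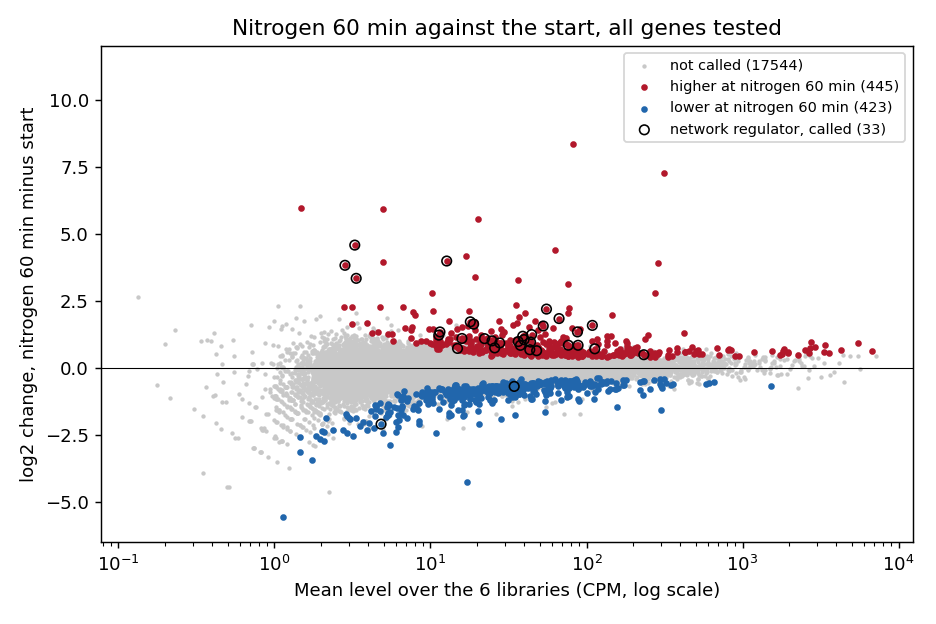
Log2 change of every tested gene (vertical axis, nitrogen 60 min minus start) against its mean level in the 6 libraries (horizontal axis, CPM, log scale). Red and blue points are the 445 higher and 423 lower genes, grey points did not pass the test, and black rings mark the 33 called regulators of the authors' network table.

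The number of calls depended on single libraries, and the lower genes more so than the higher ones. Without start replicate 3, 161 genes were called, 134 higher and 27 lower. Leaving out nitrogen 60 min replicate 1 gave 205 calls (157 higher), leaving out replicate 3 gave 257 (178 higher), and leaving out replicate 2, the library nearest the start, gave 1557 (727 higher). Of the original calls, 99 higher and 12 lower genes were called in the full set and in each of the 6 reduced ones (0.603% of the genes tested, 0.538% higher and 0.0652% lower). Scaling by library totals alone shifted the median of all genes to -0.10 and gave 335 higher and 730 lower genes, so that 31.5% of the calls were rises against 51.3% under TMM.

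The gene that rose most was Zm00001d018161, on chromosome 5 from 215727084 to 215730071 (minus strand, AGPv4). Its levels were 210, 148 and 136 CPM in nitrogen at 60 min and 0.777, 0.297 and 0.348 CPM at the start, where the 3 libraries together held 4 of its counts, and it had no count in the KCl libraries at 60 min. The groups were far apart, by a log2 change of 8.35 (SE 0.474, adjusted p = 1.65e-18, edgeR). As pooled counts, 1282 against 4, this is a 360-fold difference with a 95% counting interval of 140 to 1320, which covers counting error only. Zm00001d044138, on chromosome 3 from 220166617 to 220170536 (minus strand), was the most abundant of the strongly raised genes. It had 794, 526 and 554 CPM in nitrogen at 60 min against 3.89, 3.87 and 4.18 CPM at the start, a log2 change of 7.28 (SE 0.388, adjusted p = 1.44e-20, edgeR) and a 156-fold difference in pooled counts. In KCl at 60 min it stayed at 1.52, 2.53 and 10.2 CPM, a range that includes the start levels.

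**Figure D2:**
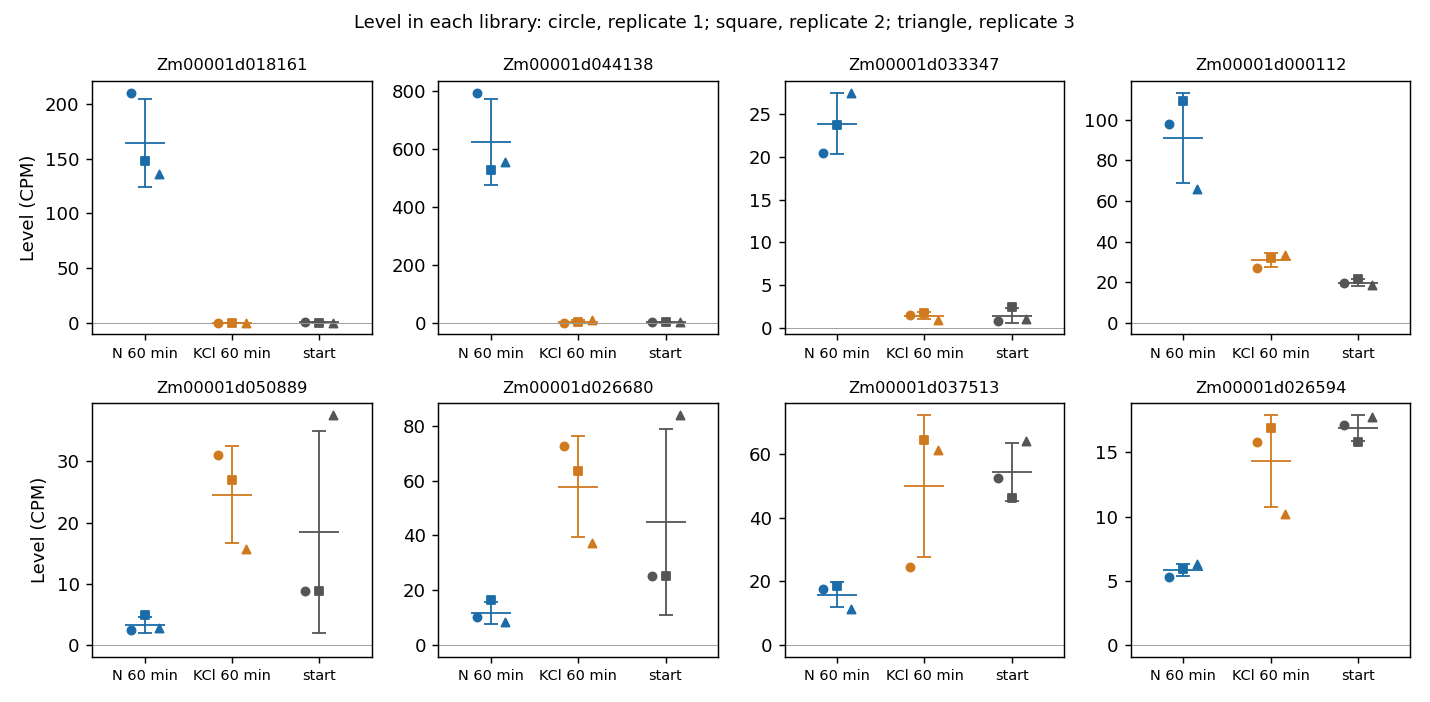
Level of 8 nuclear genes (CPM, linear axis from 0) in each library of nitrogen 60 min, KCl 60 min and the start; symbols are single libraries, the horizontal line is the mean and the bar 1 SD. In the upper row (raised genes) every nitrogen library is above every other library, and in the lower row start replicate 3 (triangle) stands far above its group for Zm00001d050889 and Zm00001d026680 but not for Zm00001d037513 and Zm00001d026594.

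Both genes climbed in nitrogen between 15 and 60 min. Zm00001d018161 averaged 0.523 ± 0.176 CPM after 5 min, 3.21 ± 1.26 after 15 min, 26.2 ± 12.4 after 30 min, 76.6 ± 33 after 45 min, 165 ± 40 after 60 min and 138 ± 23.2 after 90 min (SD, n = 3 each). Zm00001d044138 averaged 5.82 ± 0.681 CPM after 5 min, 20.8 ± 8.01 after 15 min, 193 ± 72.1 after 30 min, 380 ± 137 after 45 min, 624 ± 148 after 60 min and 321 ± 32.2 after 90 min (SD, n = 3 each). Both had their highest mean at 60 min, and in KCl no mean of either gene exceeded 7.91 CPM at any time. The contrast of nitrogen 45 min with nitrogen 5 min, which uses neither the nitrogen 60 min nor the start libraries, gave a log2 change of 7.06 (SE 0.488, adjusted p = 3.93e-15, edgeR) for Zm00001d018161. For Zm00001d044138 it gave 6.01 (SE 0.363, adjusted p = 3.45e-18).

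The strongest rises, with Zm00001d018161 and Zm00001d044138 among them, were also looked at in other libraries. Among the genes with at least 10 CPM on average and no overlap between the groups, the 12 that rose most had log2 changes of 2.35 to 8.35, with means of 23.9 to 624 CPM in nitrogen at 60 min and 0.474 to 69.2 CPM at the start. All 12 were called without each of the 6 libraries in turn (0.538% of all genes tested, as higher). They were chosen as the largest changes in these same 6 libraries, so this describes them and is no separate support. In nitrogen at 45 min against 5 min 12 were higher (0.32% of all genes tested), and in nitrogen against KCl at 45 min 11 were higher (9.99%). At 5 min, 2 of the 12 were higher in nitrogen than in KCl, near the share of all genes tested (8.32%).

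**Figure D3:**
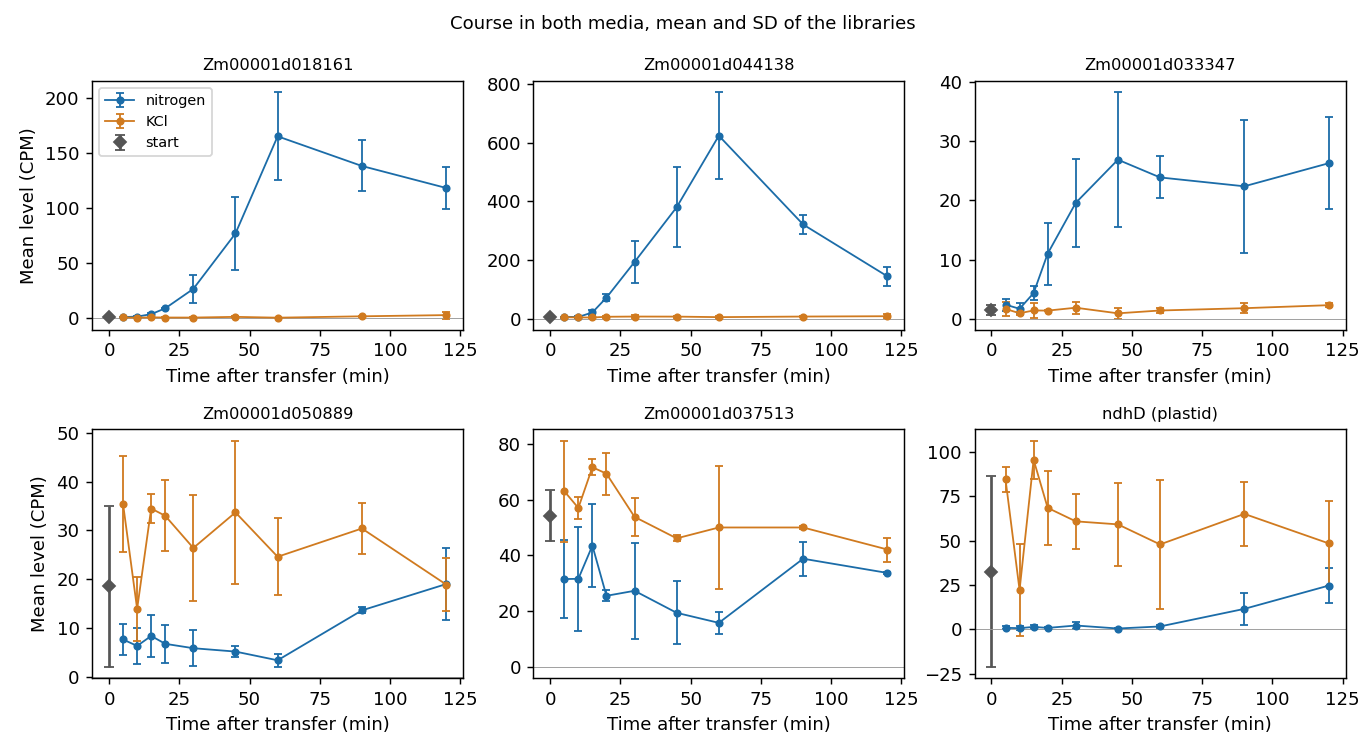
Mean level (CPM, linear axis) over time after transfer (min) in nitrogen and KCl medium, with the start as a diamond; bars are 1 SD of 3 libraries (2 for nitrogen 120 min, whose replicate 3 held 8560 counts). The upper 3 genes rise in nitrogen between 15 and 45 min while KCl stays near the start, and the lower 3 are lower in nitrogen than in KCl from 5 to 60 min, with a wide start bar for Zm00001d050889 and ndhD.

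Among the genes listed as regulators in the authors' network table, 31 of 203 rose and 2 fell against the start. That table scores pairs of a regulator and a target by a weight; the sources used here do not say how it was made, and it may have been built from these libraries, so it is not independent evidence of direction. All 203 regulators were tested, and those higher in nitrogen at 60 min than at the start made up 15.3% (31 genes, against 2.42% of all genes tested), those lower 0.985% (2 genes, against 2.3%), and 170 did not pass. The median log2 change was 0.11 over the 203 regulators and -0.01 over all genes tested. Of the 31, 19 rose more than 2-fold. The groups did not overlap in 28 of the 31, as in 418 of all 445 raised genes and, with nitrogen higher, in 11.4% of all genes tested. Without each library in turn, 18 of the 31 were called, as were 99 of the 445 raised genes (0.538% of all genes tested). The 2529 genes listed as targets but not as regulators had 156 higher (6.17%) and 176 lower (6.96%). Against KCl rather than the start, regulators lay on both sides. In nitrogen against KCl at 60 min, 54 of the 203 were higher (26.6%, against 9.68%) and 38 lower (18.7%, against 10.9%). At 45 min 63 were higher (31%, against 9.99%) and 44 lower (21.7%, against 13.7%). At 5 min 28 were higher (13.8%, against 8.32%) and 26 lower (12.8%, against 9.71%).

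The regulator that rose most among those with at least 10 CPM was Zm00001d033347, on chromosome 1 from 259828724 to 259831189 (plus strand). It had 20.4, 23.7 and 27.5 CPM in nitrogen at 60 min and 0.777, 2.38 and 1.04 CPM at the start, a log2 change of 3.98 (SE 0.454, adjusted p = 9.22e-09, edgeR). In nitrogen it passed through 4.33 ± 1.23 CPM after 15 min, 11 ± 5.26 after 20 min, 19.6 ± 7.48 after 30 min and 26.9 ± 11.4 after 45 min (SD, n = 3 each), and the SDs of its means from 30 to 120 min overlap. Zm00001d000112, on the unplaced contig B73V4_ctg52, had 97.7, 109 and 66.1 CPM in nitrogen at 60 min, against 19.4, 21.7 and 18.4 CPM at the start, a log2 change of 2.19 (SE 0.224, adjusted p = 4.39e-10, edgeR). Its mean was already 93.2 ± 17.3 CPM at 30 min and was 42.3 ± 7.1 CPM at 120 min (SD, n = 3 and 2), when KCl libraries averaged 41.8 ± 5.62 CPM (SD, n = 3). The 1 lowered regulator of that abundance, Zm00001d042968 on chromosome 3, had 22.9, 33.1 and 22.4 CPM in nitrogen at 60 min and 38.1, 36 and 53.6 CPM at the start. Its log2 change of -0.69 (SE 0.165, adjusted p = 0.00923, edgeR) became -0.49 (adjusted p = 0.203) without start replicate 3, and it also lost the call without nitrogen 60 min replicate 1 or 3.

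**Figure D4:**
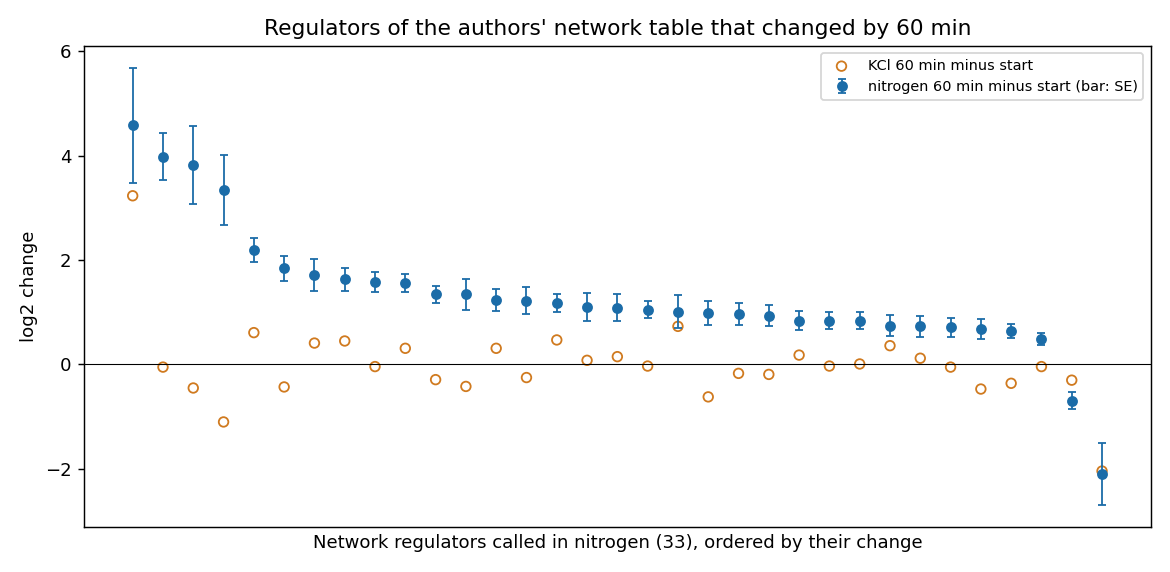
Log2 change of the 33 called regulators, ordered by their change: filled circles, nitrogen 60 min minus start with SE; open circles, KCl 60 min minus start. Both series are set against the same 3 start libraries, so their values stand side by side and are not independent; filled circles run from 4.58 to -2.1, and the open circles of the 31 raised regulators lie between -1.1 and 3.23 with a median of -0.03.

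Libraries outside both groups also held the raised regulators higher in nitrogen. In nitrogen at 45 min against 5 min, 16 of the 31 passed the test as higher and 30 had a positive log2 change (0.473% of all genes tested were called, 0.32% as higher). These were all of the 16 regulators higher in that contrast. In nitrogen against KCl at 45 min, 28 of the 31 were higher (9.99% of all genes tested), and at 5 min 6 were (8.32%). In KCl at 45 min against 5 min, 0 of the 31 were called in either direction (edgeR; 0.114% of all genes tested were higher and 0.0163% lower). The median log2 level of the 31, taken against libraries outside the compared groups, was -0.10 at 5 and 10 min in nitrogen, 0.07 after 15 min, 0.34 after 20 min, 0.61 after 30 min, 0.68 after 45 min, 0.82 after 60 min, 0.38 after 90 min and 0.18 after 120 min. It ran from -0.43 to -0.11 in KCl and was -0.29 at the start. By summed weight in the table, the ranks of the raised regulators ran from 12 to 185 of 203 with a median of 129. Of the 20 regulators with the largest summed weight 3 were raised, close to the 15.3% of all 203.

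The largest falls named here are those of called nuclear genes with at least 10 CPM on average and no overlap between the groups. These genes differed from the strongest rises in how much they rested on start replicate 3. Zm00001d050889, on chromosome 4 from 128499021 to 128500111 (minus strand), had 2.45, 4.88 and 2.75 CPM in nitrogen at 60 min and 8.94, 8.92 and 37.6 CPM at the start. The groups did not overlap, but start replicate 3 stood far above the other start libraries. Its log2 change of -2.41 (SE 0.515, adjusted p = 0.00356, edgeR) became -1.37 (adjusted p = 0.255) without start replicate 3. Zm00001d026680, on chromosome 10 from 149773133 to 149776018 (minus strand), had 10.2, 16.4 and 8.66 CPM against 25.3, 25.3 and 83.9 CPM at the start, a log2 change of -1.91 (SE 0.498, adjusted p = 0.0193, edgeR). Without start replicate 3 it was -1.08 (adjusted p = 0.392), and without nitrogen 60 min replicate 1 or 3 the adjusted p was 0.103 or 0.112. Start replicate 3 was the highest start library in all 12 of the genes that fell most at 10 CPM or more without overlap. The same was so in 328 of the 423 lowered genes (77.5%, against 36% of all genes tested). It was the lowest start library in 266 of the 445 raised genes (59.8%, against 38.4%).

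Other libraries gave lower levels of both genes in nitrogen than in KCl. Zm00001d050889 differed by -2.15 (SE 0.393, adjusted p = 0.000217, edgeR) at 5 min and by -2.67 (SE 0.466, adjusted p = 5.17e-05) at 45 min, nitrogen minus KCl on the log2 scale. Zm00001d026680 differed by -2.24 (SE 0.446, adjusted p = 0.000555) at 5 min and by -2.23 (SE 0.481, adjusted p = 0.000665) at 45 min. For both, start replicates 1 and 2 lay below the 3 KCl libraries at 60 min (15.8 to 31 CPM and 37.1 to 72.6 CPM), and start replicate 3 lay above them.

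Of the 12 lowered genes that were called without each library, the 2 with the largest change among those meeting the same level and overlap criteria were chosen after their values were seen. Zm00001d037513, on chromosome 6 from 127667045 to 127667683 (minus strand), had 17.6, 18.5 and 11.4 CPM in nitrogen at 60 min and 52.5, 46.1 and 64 CPM at the start, a log2 change of -1.77 (SE 0.361, adjusted p = 0.00208, edgeR). Zm00001d026594, on chromosome 10 from 148669998 to 148671302 (plus strand), had 5.32, 5.93 and 6.30 CPM against 17.1, 15.8 and 17.8 CPM at the start, a log2 change of -1.52 (SE 0.292, adjusted p = 0.000838, edgeR). The 3 start libraries of each gene lay close together, all above the 3 nitrogen libraries. The time courses of the pair differed. Zm00001d037513 averaged 31.5 ± 14 CPM at 5 min in nitrogen against 63 ± 18.1 CPM in KCl (SD, n = 3 each), a log2 difference of -0.96 (SE 0.317, adjusted p = 0.0292, edgeR). Zm00001d026594 averaged 16.3 ± 0.91 CPM at 5 min in nitrogen, near its start mean of 16.9 ± 1.01 (SD, n = 3 each), and was lower at 60 min than at 5 min by a log2 change of -1.47 (SE 0.29, adjusted p = 0.00153). It averaged 8.96 ± 2.17 CPM in nitrogen at 45 min and 10.8 ± 1.44 CPM in KCl (SD, n = 3 each), a difference that did not pass the test (adjusted p = 0.599), and 16.1 ± 2.96 CPM in nitrogen at 90 min.

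As groups, the raised and the lowered genes followed different courses in libraries of neither compared group. Those libraries shared the scaling, the filter and the estimate of spread with the test that chose the genes. In nitrogen at 5 min against KCl at 5 min, 250 of the 423 lowered genes were lower (59.1%, against 9.71% of all genes tested), and 154 of the 445 raised genes were higher (34.6%, against 8.32%). The count for raised genes was 23 without nitrogen 5 min replicate 3, and 95, 73 and 102 without KCl 5 min replicate 1, 2 and 3, and the count for lowered genes was 133 without nitrogen 5 min replicate 3. In nitrogen at 45 min against KCl at 45 min, 297 lowered genes were lower (70.2%, against 13.7%) and 198 raised genes were higher (44.5%, against 9.99%, and 127 genes without nitrogen 45 min replicate 2). Of the 423 lowered genes, 26 kept their call without start replicate 3. Of the 12 lowered genes called without each library, 7 were lower in nitrogen than in KCl at 5 min (58.3%, against 9.71%). At 5 min 1 of the 12 was higher (8.33%, against 8.32%). At 45 min 7 of the 12 were lower (58.3%, against 13.7%) and 0 higher. Between 5 and 45 min within nitrogen medium, 55 raised genes were higher (12.4%, against 0.32%), whereas 3 lowered genes were lower (0.709%, against 0.152%). Within KCl medium over the same interval, 4 raised genes were higher (0.899%, against 0.114%) and 0 lowered genes were called (edgeR; 3 genes in all were lower, 0.0163% of those tested).

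The median level of the lowered genes in nitrogen was -0.42 after 5 min, -0.20 after 15 min, -0.40 after 30 min, -0.53 after 45 min, -0.75 after 60 min, 0.01 after 90 min and 0.13 after 120 min, on a log2 scale against libraries outside both compared groups. In KCl it ran from 0.12 to 0.34. Start replicates 1, 2 and 3 had -0.09, 0.02 and 0.35, so that replicate 3 lay above the KCl range of group means and the others below it. The raised genes had a median level in nitrogen of 0.14 after 5 min, 0.09 after 15 min, 0.23 after 30 min, 0.30 after 45 min, 0.53 after 60 min, 0.08 after 90 min and 0.04 after 120 min, and -0.22 to -0.05 in KCl. At the start it was -0.13, -0.17 and -0.30 in replicates 1, 2 and 3. Both sets were chosen at 60 min, so that their extremes at that time are a description. The 99 raised genes called without each library stood at 0.97 after 60 min, 0.67 after 90 min and 0.52 after 120 min in nitrogen and at -0.34 at the start, and 48 of the 99 were higher at 45 min than at 5 min in nitrogen (48.5%, against 0.32% of all genes tested). The 12 lowered genes called without each library stood at -0.28 after 5 min, -0.80 after 60 min and -0.05 after 90 min in nitrogen. They stood at 0.23 at the start and at 0.11 to 0.35 in KCl.

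**Figure D5:**
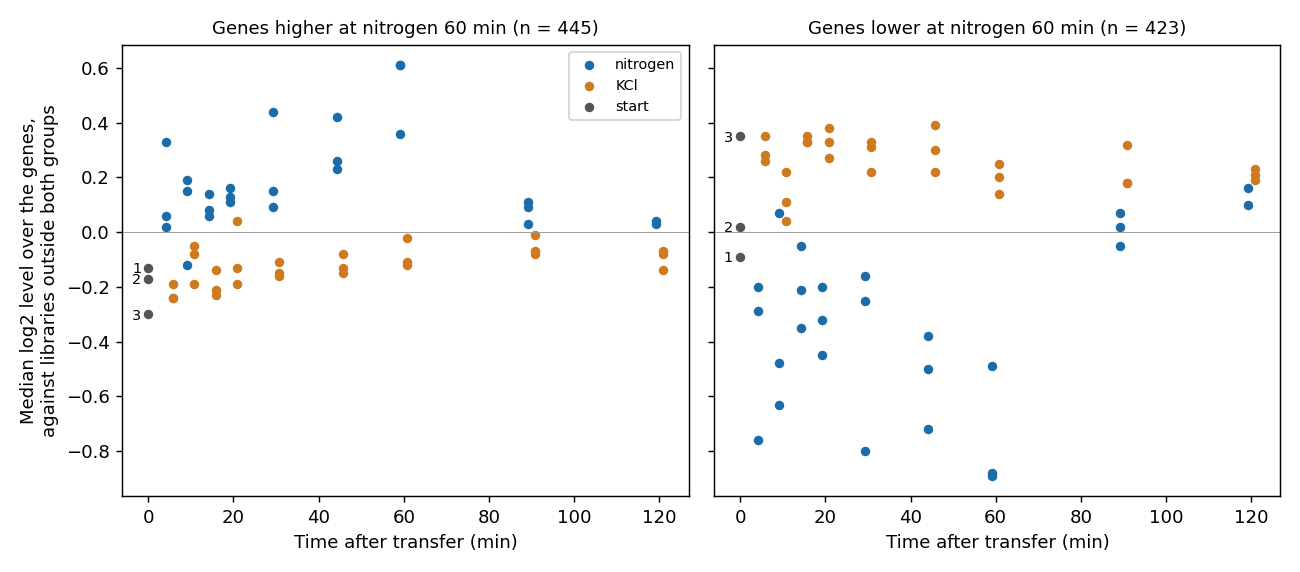
Median log2 level (vertical axis, against the libraries outside both compared groups) of the 445 raised genes (left) and the 423 lowered genes (right) in single libraries, against time after transfer (min); the start libraries are numbered and the nitrogen 120 min library of 8560 counts is left out. In the right panel start replicate 3, at 0.35, lies among the KCl libraries, while replicates 1 and 2, at -0.09 and 0.02, lie below every KCl library.

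The other comparisons at 60 min share libraries with this one, so their values are given side by side. KCl at 60 min against the start called 510 genes (2.77%), 211 higher (1.15%) and 299 lower (1.62%). Nitrogen against KCl at 60 min, which equals the difference between their changes from the start, called 3795 genes (20.6%), 1783 higher (9.68%) and 2012 lower (10.9%). Nitrogen at 60 min against nitrogen at 5 min, which shares the transfer and the medium, called 151 (0.82%), 115 higher (0.625%) and 36 lower (0.196%). For Zm00001d044138 the log2 changes were 7.28 in nitrogen and 0.04 in KCl (SE 0.755, adjusted p = 0.996) against the start, and 7.24 between the media at 60 min (SE 0.431, adjusted p = 1.33e-18, edgeR). For the regulator Zm00001d033347 they were 3.98 in nitrogen, -0.05 in KCl (SE 0.874, adjusted p = 0.994) and 4.03 between the media (SE 0.558, adjusted p = 1.82e-06). The counts of 3 of these comparisons also depended on single libraries. KCl at 60 min against the start ranged from 123 without start replicate 1 to 904 without start replicate 3, with 228 without start replicate 2 and 163 and 160 without KCl replicates 1 and 2. Nitrogen against KCl fell to 2173 without nitrogen replicate 1 and to 2389 and 2324 without KCl replicates 1 and 2. Nitrogen at 60 against 5 min fell to 97 without nitrogen 60 min replicate 1 and to 99 without nitrogen 5 min replicate 2.

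Plastid genes gave 1 call in nitrogen at 60 min against the start. Plastid transcripts mostly lack long poly(A) tails, so these values describe the fraction that the poly(A)-primed assay captured. Of the 7 plastid models tested, 0 were higher, 1 was lower and 6 did not pass (2.42% of all genes tested were higher and 2.3% lower, so a single call among 7 says little about the group), with a median log2 change of -0.80 and a range of -4.25 to -0.22. The called model was ndhD, for a subunit of the NADH dehydrogenase-like complex of the thylakoid membrane. Its outer span overlaps that of 1 model on the opposite strand, and whether their exons overlap was not examined. Levels of ndhD were 1.64, 0.698 and 2.75 CPM in nitrogen at 60 min and 1.17, 2.08 and 94.7 CPM at the start. The groups overlapped, and start replicate 3 alone set them apart: the log2 change of -4.25 (SE 0.992, adjusted p = 0.00733, edgeR) became -0.02 (adjusted p = 1) without that library. In KCl at 60 min ndhD had 38.1, 87.9 and 17.6 CPM, and in nitrogen against KCl at 5 min it differed by -6.41 on the log2 scale (SE 0.935, adjusted p = 2.07e-05). In that contrast 5 of the 7 plastid models were lower (71.4%, against 9.71% of all genes tested), matK and rps16 among them. In nitrogen against KCl 2 of the 7 were lower at 45 min and 2 at 60 min (28.6% each, against 13.7% and 10.9%). The intron maturase gene matK had 236, 248 and 319 CPM in nitrogen at 60 min and 311, 394 and 688 CPM at the start, a log2 change of -0.80 that did not pass (SE 0.36, adjusted p = 0.191). The ribosomal protein gene rps16, the most abundant plastid model, changed by -0.22 (SE 0.407, adjusted p = 0.811) with overlapping groups.

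Of 21 mitochondrial models tested, 0 were called in either direction in nitrogen at 60 min against the start, which is near the 4.71% called among all genes tested, with a median log2 change of -0.02 and a range of -0.39 to 0.30 (edgeR; 0 were called also under each of the 17 alternatives tried, DESeq2 among them). The most abundant, the open reading frame orf99-d, had 2150, 2000 and 2630 CPM in nitrogen at 60 min and 2860, 2640 and 3360 CPM at the start, a log2 change of -0.39 (SE 0.277, adjusted p = 0.443) without overlap between the groups. The model spanning rps1, for a ribosomal protein, and ccmFN, for cytochrome c maturation, changed by -0.12 (SE 0.272, adjusted p = 0.842). Beside these, the 21 models had a median of -0.87 in KCl at 60 min against the same start libraries, with 0 called (2.77% of all genes tested).

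The changed nuclear genes had higher median levels than all nuclear genes tested. The median level was 40.3 CPM for the raised and 30.7 CPM for the lowered genes, against 18.3 CPM over all nuclear genes tested. A test on counts has more power at higher levels, and whether the difference goes beyond this was not tested. The median exonic length was 1926 bases for the raised and 1845 bases for the lowered genes, against 2102 bases overall. Single-exon models made up 5.84% of the raised, 9.24% of the lowered genes, against 8.88% of all. Among the genes called without each library they made up 13.1% of the 99 raised and 16.7% of the 12 lowered, with median exonic lengths of 1870 and 2444 bases. Next to another raised gene lay 23 of the 445 raised genes (5.17%), near the 4.72% of all tested genes. Next to another lowered gene lay 22 of the 423 lowered genes (5.2%), near the 4.5% of all tested genes. Among 138 nuclear non-coding RNA genes tested, 1 was higher (0.725%, against 2.42% of all genes tested) and 1 lower (0.725%, against 2.3%), and none of the 154 microRNA gene IDs passed the filter on low counts.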

How the data were processed

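Poly(A) RNA was sequenced from its 3' ends with unique molecular identifiers. The authors deposited raw counts per gene, and these were tested. Per the file headers, counting used featureCounts 1.5.1 and AGPv4 annotation release 37 without a strand option, so overlapping genes on opposite strands cannot be separated. The submitters' processing notes list fastp 0.21.0, STAR 2.7.6a, UMI-tools 1.1.1 and another featureCounts version, 2.0.1. A deposited quantile-normalized table (18370 genes, 55 libraries) is treated as a score because its values are rounded, and the weight in the deposited network table is a score per regulator and target. 2 columns that match no labelled sample were not used.

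The test was the two-sided quasi-likelihood F test of edgeR 4.0.16 (R 4.3.3) after filterByExpr, which kept 18412 of 46335 genes, and TMM scaling. The model held 19 group means for the 57 libraries (38 residual degrees of freedom). Benjamini-Hochberg adjustment ran over all genes tested, with a threshold of 0.05. An SE is the size of the log2 change over the root of its F. The comparison with the start was tested on simulated counts of 17991 genes, where it found 21% of 1.5-fold and 95% of 3-fold changes and made 0 false calls. The changed genes were drawn from those with a mean of at least 5 CPM, so recovery at lower levels was not measured. The simulated spread of a gene followed from its mean level alone, and no simulated library was shifted as a whole. The 0 false calls therefore do not cover the dependence on single libraries seen in the real counts. Pairs of replicates differed by more than sampling noise (chi-square 1.74 to 6.21 per degree of freedom), and each library was counted as 1 sample.

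Gene names came from a table of another assembly, which held 0 of the 44146 nuclear IDs; organelle models were named by position. Named by rule are, among called genes of at least 10 CPM without overlap between the groups, the 2 with the largest change in each direction, the same among network regulators, and the most abundant or called organelle models. The members and lists were chosen with earlier results of these data known. Alternatives were other scalings, filters, DESeq2 1.42.0, limma 3.58.1 on the quantile table as log2(value + 1), fewer libraries, a replicate block and, as a covariate, a within-group axis (the first principal component of residual log2 CPM). The contrasts that avoid both compared groups, the last alternative without the smallest library and the lowered genes called without each library were added after the data were seen. Intervals and floors, the latter at 3 counts over a group, cover counting error only.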

Additional observations from a re-analysis of the deposited data

Results flagged for a closer look

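The change from the start differed between nitrogen and KCl at 60 min in 3795 genes. This difference was tested directly, as nitrogen 60 min minus KCl 60 min, with edgeR and Benjamini-Hochberg adjustment. Among the named genes it was, on the log2 scale, 7.24 for Zm00001d044138, 4.03 for Zm00001d033347 and 1.58 for Zm00001d000112, each with the larger rise in nitrogen. It was -2.87 for Zm00001d050889, -2.31 for Zm00001d026680, -1.58 for Zm00001d037513, -1.31 for Zm00001d026594 and -4.8 for GRMZM5G800096 (ndhD), each with the lower level in nitrogen. Adjusted p-values of these 8 ran from 1.33e-18 (Zm00001d044138) to 0.00402 (Zm00001d026594). Zm00001d018161 had 1282 counts in nitrogen and 0 in KCl at 60 min, at least 230-fold higher in nitrogen when KCl is put at a floor of 3 counts over its 3 libraries.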

How the results depend on the processing

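Numbers are called genes unless stated. Nitrogen 60 min minus start (868) gave 1475 without a filter, 428 with DESeq2, 338 from the compared groups alone, 1400 with the within-group axis and 2021 with the axis and without the smallest library (nitrogen 120 min replicate 3, 8560 counts); leaving out 1 library gave 161 to 1557. Higher genes (445) were 215, 201 and 965 with DESeq2, the compared groups alone and the axis without the smallest library, and 134 to 727 leaving out 1 library. Lower genes (423) were 730 with library totals, 842 without a filter, 213 with DESeq2, 137 from the compared groups alone, 830 with the axis, 1056 with the axis without the smallest library, and 27 to 830 leaving out 1 library. Raised regulators (31) stayed within 1.5 times under all 17 alternatives (22 to 42); lowered regulators (2) were 8, 11, 1, 1, 11 and 14 under the settings just listed for lower genes and 0 to 7 leaving out 1 library. Lowered plastid models (1) were 4 without a filter, 0 from the compared groups alone, 0 on the quantile table, and 0 to 2 leaving out 1 library. From the compared groups alone ndhD did not pass the filter on low counts, so it was not tested there. KCl 60 min minus start (510) gave 990 without a filter, 251 with DESeq2, 1246 on the quantile table, 1161 with the axis without the smallest library, and 123 to 904 leaving out 1 library. Nitrogen minus KCl at 60 min (3795) gave 2390 with DESeq2 and 2173 to 3985 leaving out 1 library. Nitrogen 60 minus 5 min (151) gave 296 without a filter, 90 with DESeq2, 73 from the compared groups alone, and 97 to 170 leaving out 1 library. Raised genes higher in nitrogen than KCl at 5 min (154) were 57 with DESeq2 and 23 to 163 leaving out 1 library; at 45 min (198) they were 127 to 188. Lowered genes lower in nitrogen at 5 min (250) were 133 to 265. The ratio of distances between and within the 2 groups (1.25) was 1.16 to 1.42 leaving out 1 library. The cause of these shifts was not tested, beyond fewer samples or more genes where the setting itself gives them. No called gene among the named ones changed direction under any alternative run, and for the other calls a change of direction was not looked for. The gene rps16, which was not called, had log2 changes of -0.54 to 0.29 leaving out 1 library.

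With the replicate number as a block the comparison with the start called 854 genes, 436 higher and 418 lower, and no call on a named gene changed. Same-numbered libraries correlated at 0.18, -0.04 and -0.07, so the numbers were not taken as pairs.

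In counts simulated at the depth and replicate number of these libraries, 21% of 1.5-fold changes were recovered among genes of at least 5 CPM. Depth was not varied apart from replicate number.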
